A study of Mus musculus with 2 samples.

Results

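*Ptpn22*, *Ptpn12*, *Ptpn18* and *Csk* were followed in cells that the study's methods describe as coming from spleens. By the same methods the mice were infected with clone 13 of the lymphocytic choriomeningitis virus (LCMV-cl13), which establishes a persistent infection. The deposited labels name other sources, as given below. These 4 of the 32285 genes counted were chosen by name, as the family of phosphatases that holds the gene carrying the studied allele and the kinase that its product binds. The study compared C57BL/6 mice that were wild type at *Ptpn22* (PEP-WT) with C57BL/6 mice homozygous for the R619W substitution (PEP-619WW), which was made in the germ line with CRISPR/Cas9 and is therefore carried by every cell. According to the methods, mice of both sexes aged 6 to 12 weeks were given 1000000 plaque-forming units of virus intravenously, and spleens were taken 8 days after infection. The cells of 4 to 5 age-matched and sex-matched mice per genotype were pooled, sorted as live CD45+ cells and sequenced as 10x Genomics 3′ libraries, in which each captured RNA molecule is counted once by its unique molecular identifier (UMI). No sample analysed here is described as uninfected, and by the methods infection is shared by both groups.

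Each genotype had 2 deposited runs, called run 1 and run 2 here, with 1 pooled library per genotype in each. A pool is not a set of replicates, so no test between genotypes is possible, and every interval below is a 95% interval that covers counting error only. It does not cover differences between mice, sorts or libraries. Run 1 held 14821 PEP-WT barcodes and 8576 PEP-619WW barcodes, with median depths of 2832 and 3293 UMIs. Run 2 held 9539 and 11029 barcodes, with median depths of 4837 and 3611 UMIs. Between any pair of libraries 19 to 49 barcode sequences were shared, at most 0.455% of a library.

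The runs differed in what they contained. The deposited labels name liver, the Jurkat line and tumor-infiltrating cells, while the protocol and the study's methods name splenocytes. The hepatocyte gene *Alb* had no UMI in any of the 4 libraries. In run 1 B barcodes, as gated below, made up 46.8% of the PEP-WT library and 36.7% of the PEP-619WW library, and the melanocyte genes were near 0, with *Dct* at 5 and 1 UMIs in the whole libraries. In run 2 the PEP-WT library had 2 B barcodes, 28 CD8 T barcodes and 12 CD4 T barcodes, and 68.0% of its barcodes passed the monocyte or macrophage gate. That library also held 9448 UMIs of *Dct*, which encodes a pigment enzyme of melanocytes, against 382 in the PEP-619WW library of run 2. The methods give, for the spleen experiment, the barcode numbers that the second run holds. The PEP-WT library of that run held almost no B or T cells, whereas the study reports clusters of both in each genotype. Which run gave the study's spleen results is therefore not settled here, and neither are the tissue and the infection of run 2. The sources used here do not say how the runs relate, and the runs are kept apart throughout.

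The products of *Ptpn22*, *Ptpn12* and *Ptpn18* form the PEST family of cytoplasmic tyrosine phosphatases, named for a tail rich in proline, glutamate, serine and threonine. PEP, the *Ptpn22* product, removes activating phosphates from Lck, Fyn and Zap70 after antigen receptor engagement and so tempers T and B cell receptor signalling. Csk restrains Src-family kinases such as Lck and Fyn in another way, by phosphorylating the inhibitory tyrosine in their tails, and it binds a proline-rich motif of PEP through its SH3 domain. Residue 619 lies in that motif, and the substitution is known to weaken the binding.

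The reference bases around the edited residue are shown because they mark where the genotypes differ. *Ptpn22* (ENSMUSG00000027843) lies at chr3:103859795-103912247 on the plus strand of GRCm38. Codon 619 is in exon 14 of 21, at chr3:103888559-103888561, within coding sequence. The window printed here covers chr3:103888532-103888591 on the plus strand, all of it in exon 14, with the arginine codon in capitals.
*Ptpn22* codon 619: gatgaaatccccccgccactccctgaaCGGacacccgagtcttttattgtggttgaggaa
The codon lies 759 bases before the end of the 2743-base transcript model. The deposited counts give UMIs per gene and no bases, so they do not check which allele a library carried.

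What the 3 phosphatases share is the catalytic signature, shown from the same annotation with the codon of the catalytic cysteine in capitals.
*Ptpn22* residues 226 to 233: cacTGCagtgccggctgcggaagg
*Ptpn12* residues 230 to 237: catTGCagtgcaggctgtggacga
*Ptpn18* residues 228 to 235: cacTGCagtgctggctgcggacga
The 24 bases encode the same residues in all 3 genes, although 19 of the bases of *Ptpn12* and 21 of those of *Ptpn18* equal those of *Ptpn22*. *Ptpn12* (ENSMUSG00000028771) lies at chr5:20986645-21055911 on the minus strand, *Ptpn18* (ENSMUSG00000026126) at chr1:34459762-34475733 on the plus strand and *Csk* (ENSMUSG00000032312) at chr9:57626646-57653631 on the minus strand of GRCm38. The proteins encoded by the models used have 802, 775, 453 and 450 residues for *Ptpn22*, *Ptpn12*, *Ptpn18* and *Csk*. *Ptpn22* shares its span with 2 intronic transcripts on the same strand and 1 pseudogene on the other, *Ptpn12* and *Ptpn18* with 1 transcript each on the other strand, and *Csk* with none.

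Barcodes were gated on marker UMIs. CD8 T barcodes had *Cd3e* and *Cd8b1*, CD4 T barcodes had *Cd3e* and *Cd4*, and B barcodes had *Cd79a* and *Ms4a1*, each with at least 1 UMI. Plasma barcodes had at least 5 UMIs of *Mzb1*, monocyte or macrophage barcodes at least 5 of *Lyz2*, and neutrophil barcodes at least 20 of *S100a8* and *S100a9* together. In run 1 the gates held 1439 and 953 CD8 T, 361 and 261 CD4 T, 6937 and 3144 B, 2361 and 1893 plasma, 1600 and 1236 monocyte or macrophage, and 806 and 864 neutrophil barcodes, the PEP-WT number first. Levels are summed UMIs of a gene per 1000000 UMIs (CPM) of all genes in the gate, and they are compared between gates and genotypes within a gene, not between genes.

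The gates of run 1 were not pure, which bears on each value below. More than 1 gate was passed by 23.2% of gated PEP-WT barcodes and 29.0% of gated PEP-619WW barcodes. Of the plasma gate 60.2% in PEP-WT and 43.9% in PEP-619WW also passed the B gate, and the neutrophil gate shared 68.7% and 65.0% with the monocyte or macrophage gate. All 7 T cell markers were detected in every other gate, with summed levels of 263 to 508 CPM against 2473 to 2935 CPM in the T gates. *Mzb1* had a UMI in 51.2% and 61.4% of all barcodes, and within the plasma gate *Jchain* was seen in 72.2% and 86.2% of barcodes. For this reason several ratios are also given for barcodes that passed 1 gate alone. Of the 24 genotype ratios of the 4 genes in run 1, 10 stayed within counting error there, 9 moved and 5 turned direction. A turn was counted only where the interval of the whole gate excluded 1. Other changes of sign are among those that stayed or moved.

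Among the 6 gates *Ptpn22* was highest in T cells in both genotypes of run 1. In PEP-WT its level was 162 CPM in the CD8 T gate (2254 UMIs, interval 156 to 169), 129 CPM in the CD4 T gate, 66.6 CPM in the B gate and 45.7 CPM in the plasma gate. The monocyte or macrophage gate stood at 53.9 CPM and the neutrophil gate at 50.8 CPM. In PEP-619WW the same gates stood at 182 (2289 UMIs, interval 175 to 190), 182, 91.0, 55.6, 51.2 and 50.04 CPM. The order of neighbours was thus clear down to the B gate in PEP-WT, whereas the CD8 T and CD4 T gates of PEP-619WW could not be ordered. The CD8 T level was 2.44-fold (2.30 to 2.59) that of the B gate in PEP-WT and 2.00-fold (1.88 to 2.13) in PEP-619WW, and 3.01-fold (2.78 to 3.26) and 3.56-fold (3.27 to 3.89) that of the monocyte or macrophage gate. Among barcodes of those gates alone, the log2 distance from the monocyte or macrophage to the CD8 T gate widened from 1.59 to 2.49 in PEP-WT and from 1.83 to 2.64 in PEP-619WW.

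NK barcodes were as high as T cells. They stood at 192 CPM in PEP-WT (77 barcodes, 69 UMIs, interval 150 to 244) and 177 CPM in PEP-619WW (37 barcodes). The PEP-WT level could not be told from that of the CD8 T gate. Erythroid barcodes, defined by at least 25% hemoglobin UMIs, were taken as the background that free RNA can give. They stood at 24.5 CPM in PEP-WT (32 UMIs, interval 16.8 to 34.6). Their summed erythroid markers were 508539 CPM, which lowers the CPM of every other gene in them. A CPM below that of the gates therefore does not show that the gates stand above free RNA.

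**Figure D1:**
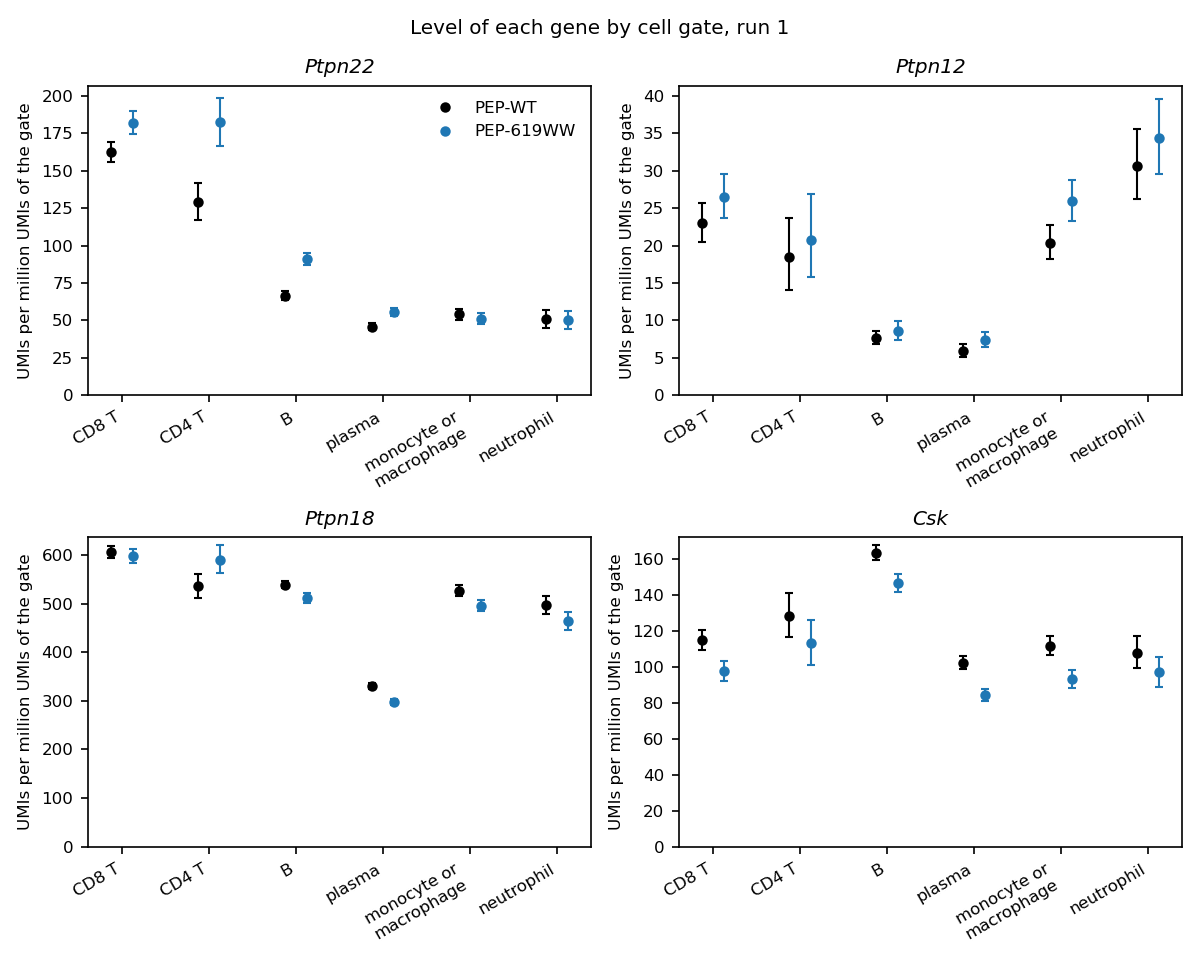
UMIs per 1000000 UMIs of each gate (vertical axes, linear, with a different scale for each gene) for the 6 gates of run 1, with PEP-WT in black and PEP-619WW in blue. Points are single pooled libraries and bars are exact Poisson 95% intervals. Of the 6 gates *Ptpn22* is highest in the 2 T cell gates, *Ptpn12* in neutrophils and *Csk* in B cells.

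The share of barcodes with a *Ptpn22* UMI followed depth as well as level. In the CD8 T gate the share with at least 1 UMI was 69.9% in PEP-WT and 83.0% in PEP-619WW, at median depths of 6038 and 8660 UMIs, against 3.77% of PEP-WT erythroid barcodes at a median of 1885. After thinning each barcode to 1000 UMIs the CD8 T shares were 18.4% (16.4 to 20.5) and 18.9% (16.4 to 21.5), which overlap. The thinned CD4 T shares, 17.0% (13.3 to 21.3) and 20.7% (15.9 to 26.1), overlap too. So do the thinned plasma shares, 5.52% (4.63 to 6.51) and 6.83% (5.72 to 8.08). The thinned B shares were 6.95% (6.36 to 7.58) and 11.6% (10.45 to 12.7), which do not. The thinned share of the monocyte or macrophage gate, 3.52% (2.66 to 4.55) in PEP-WT, overlapped that of the erythroid barcodes, 2.05% (0.987 to 3.74), as did the 3.74% (2.52 to 5.32) of the PEP-WT neutrophil gate. Neither is read as expression.

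The genotype comparison asked whether the gene that carries the substitution, or its relatives and partner, differed in RNA level. Over the 6 gates of run 1 none of the 24 ratios of the 4 genes passed 1.5-fold, the size used here in place of a test. Among genes with at least 50 UMIs over both genotypes, that size was passed by 8.6% in the CD8 T, 13% in the CD4 T, 9.47% in the B, 8.82% in the plasma, 8.89% in the monocyte or macrophage and 13.4% in the neutrophil gate. Of the 24 intervals 7 lay above 1, 8 below 1 and 9 included 1. Among the same genes the interval excluded 1 for 35.2% in the CD8 T, 27.9% in the CD4 T, 47.1% in the B, 45.3% in the plasma, 40.4% in the monocyte or macrophage and 34.5% in the neutrophil gate. Intervals narrow as UMIs rise, so nothing particular to the 4 genes is read from these counts.

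By CPM *Ptpn22* was higher in PEP-619WW than in PEP-WT in all 4 lymphoid gates of run 1. The thinned shares of the genotypes were apart in the B gate only, and the plasma gate shares many barcodes with the B gate. The CPM ratio was 1.42 (1.24 to 1.61) in the CD4 T gate, where 426 and 509 UMIs were counted. In barcodes of the CD4 T gate alone the log2 ratio was 0.45 (0.20 to 0.71), against 0.50 for the whole gate. Summed erythroid markers in the CD4 T gate were 1521 CPM in PEP-WT and 46.2 CPM in PEP-619WW, monocyte or macrophage markers 715 and 398 CPM, B cell markers 490 and 237 CPM and T cell markers 2473 and 2821 CPM, and beyond the restriction to 1 gate their part was not tested. The ratio was 1.37 (1.29 to 1.45) in the B gate, from 2368 and 1959 UMIs, and 1.22 (1.13 to 1.31) in the plasma gate. In barcodes of the plasma gate alone the log2 ratio was 0.31 (0.04 to 0.59), at 22.6 and 28.1 CPM, and the PEP-WT level lay within the interval of the erythroid barcodes. In the CD8 T gate the ratio was 1.12 (1.06 to 1.19). The monocyte or macrophage ratio was 0.95 (0.86 to 1.05) and the neutrophil ratio 0.99 (0.83 to 1.17), so both included 1. Their log2 ratios turned sign in 2 of 9 alternatives, up to 0.11, and in 7 of 9, up to 0.47, and with thinned shares that overlap the erythroid background no contrast between lymphoid and myeloid gates is read. Over all genes the median log2 ratio lay between -0.0052 and 0.0145 in the 4 lymphoid gates, and was -0.07 and -0.11 in the myeloid ones.

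The B cell difference was larger in barcodes that passed no other gate. There *Ptpn22* stood at 73.1 CPM in PEP-WT (1105 UMIs) and 126 CPM in PEP-619WW (908 UMIs), a log2 ratio of 0.79 (0.66 to 0.92) against 0.45 for the whole gate. At 1.5-fold 9.36% of genes passed in that set. In the CD8 T gate alone the log2 ratio was 0.26 against 0.17 for the whole gate, and 7.65% of genes passed 1.5-fold there. Summed plasma markers in the B gate were 3971 CPM in PEP-WT and 6097 CPM in PEP-619WW, summed neutrophil markers 1351 and 2740 CPM, and summed erythroid markers 2419 and 321 CPM. The part of these RNAs in the B gate ratio was not tested beyond the restriction to barcodes of the B gate alone.

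**Figure D2:**
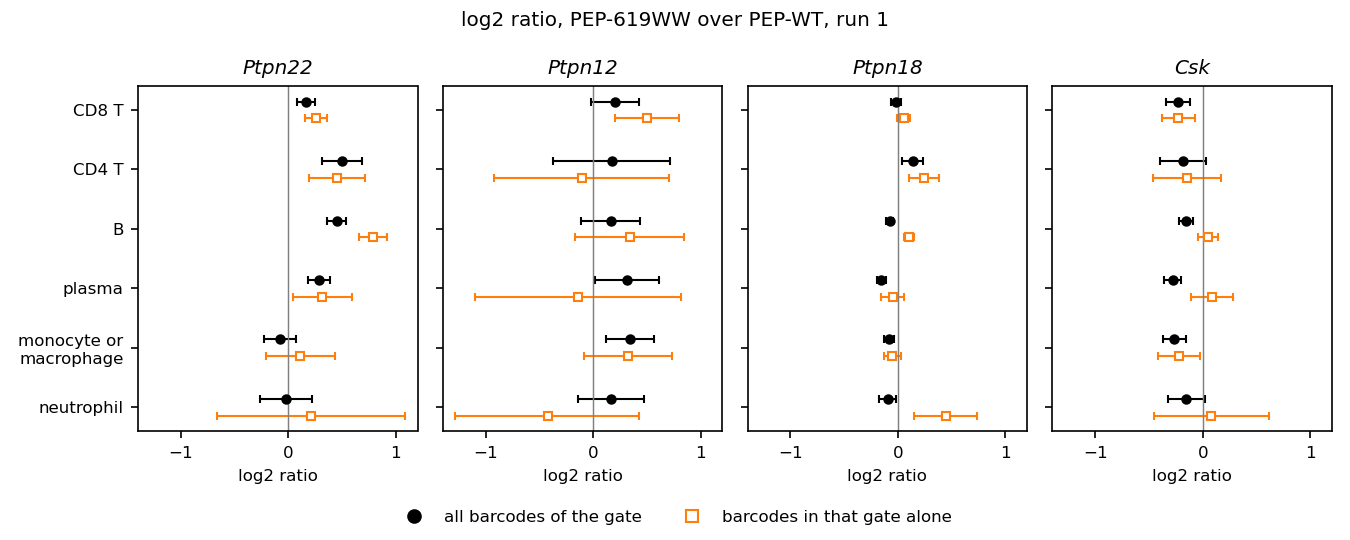
Base-2 logarithm of the ratio of PEP-619WW to PEP-WT (horizontal axes) for each gene and gate of run 1, for all barcodes of the gate (black circles) and for barcodes that passed that gate alone (open orange squares). Bars are exact conditional 95% intervals for counting error. *Ptpn22* lies above 0 in the 4 lymphoid gates under both choices, and the B gate of *Ptpn18* moves from below to above 0.

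Within the B gate, the *Ptpn22* ratio was larger in barcodes without the proliferation gene *Mki67* than in those with it, and the intervals did not overlap. Barcodes without *Mki67* were split by *Cr2*, the complement receptor of follicular and marginal zone B cells. In *Cr2*-positive barcodes *Ptpn22* stood at 79.4 CPM in PEP-WT and 120 CPM in PEP-619WW, a ratio of 1.51 (1.31 to 1.75), where 11.6% of genes passed 1.5-fold. In *Cr2*-negative barcodes it stood at 78.6 and 125 CPM, a ratio of 1.59 (1.46 to 1.74), where 8.35% of genes passed. In *Mki67*-positive B barcodes the levels were 48.5 and 56.5 CPM and the ratio 1.16 (1.04 to 1.30), and no share over all genes was computed there. The makeup of the gate also differed, with *Cr2*-positive barcodes at 30.4% of the gate in PEP-WT and 14.4% in PEP-619WW, and *Mki67*-positive barcodes holding 40.7% and 49.0% of its UMIs.

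Among CD8 T cells, the *Ptpn22* CPM was higher in effector than in cycling barcodes of both genotypes. In barcodes with the cytotoxic granule gene *Gzmb* and no *Mki67* it stood at 225 CPM in PEP-WT (494 barcodes) and 269 CPM in PEP-619WW (446 barcodes), a ratio of 1.20 (1.08 to 1.32). In *Mki67*-positive CD8 T barcodes it stood at 137 and 143 CPM, and the ratio of 1.04 (0.96 to 1.13) included 1. No share over all genes was computed for either subset. The cycling subset held 63.6% and 67.3% of the UMIs of the gate, and effector barcodes made up 34.3% and 46.8% of its barcodes. In PEP-WT 70.2% of effector and 82.0% of cycling barcodes had a *Ptpn22* UMI, at median depths of 4589 and 11611 UMIs. Thinned, these shares were 20.9% (17.4 to 24.8) and 15.8% (12.8 to 19.1), which overlap. In PEP-619WW the thinned shares were 23.1% (19.3 to 27.4) and 13.8% (10.6 to 17.6), which do not.

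The CD4 T gate was small. Barcodes with the follicular helper genes *Cxcr5* or *Bcl6* and without *Foxp3* stood at 137 CPM in PEP-WT (92 barcodes, 130 UMIs) and 226 CPM in PEP-619WW (71 barcodes, 178 UMIs). The ratio was 1.65 (1.31 to 2.08), in a set where 18.1% of genes passed 1.5-fold. *Foxp3*-positive regulatory barcodes numbered 16 and 18, with 22 and 28 UMIs of *Ptpn22*, and were too few for a ratio.

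**Figure D3:**
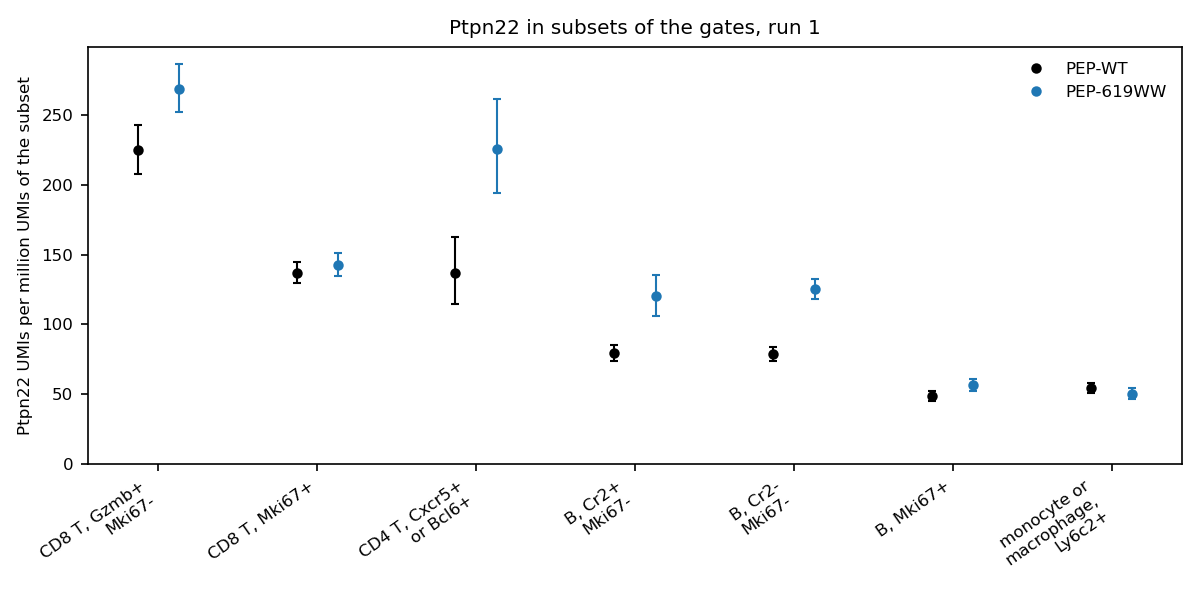
*Ptpn22* UMIs per 1000000 UMIs (vertical axis, linear from 0) in subsets of the run 1 gates, with PEP-WT in black and PEP-619WW in blue. Points are single pooled libraries and bars are exact Poisson 95% intervals. The *Mki67*-negative B subsets stand at 78.6 and 79.4 in PEP-WT against 125 and 120 in PEP-619WW, while the *Mki67*-positive CD8 T subset and the *Ly6c2*-positive monocyte or macrophage subset overlap between genotypes.

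*Ptpn12* encodes PTP-PEST, a widely expressed phosphatase that acts on the adhesion proteins p130Cas and paxillin and on the cytoskeletal adaptor Pstpip1. Among the 6 gates it was lowest in B and plasma barcodes and highest in neutrophils. NK barcodes stood at 30.7 CPM in PEP-WT (11 UMIs, interval 15.3 to 54.9) and 47.8 CPM in PEP-619WW (10 UMIs, interval 22.9 to 88.0), which could not be ordered against neutrophils. In PEP-WT of run 1 it stood at 30.6 CPM in the neutrophil (169 UMIs), 23.0 CPM in the CD8 T, 20.4 CPM in the monocyte or macrophage and 18.4 CPM in the CD4 T gate. The B gate stood at 7.67 CPM and the plasma gate at 5.95 CPM, with intervals that overlap that of the PEP-WT erythroid barcodes, 3.06 CPM (4 UMIs, interval 0.834 to 7.84). Neither level is told from background there. PEP-619WW had 34.3, 26.5, 25.9, 20.8, 8.60 and 7.40 CPM in the same gates, so the order was kept. The neutrophil gate lay above the next gate by more than counting error in both genotypes, and the CD8 T, monocyte or macrophage and CD4 T gates could not be ordered.

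In the whole gates of run 1 all 6 ratios of *Ptpn12* were above 1, from 1.12 to 1.27, but only 2 intervals excluded 1. The log2 ratio turned sign in 3 of 10 alternatives in the CD4 T gate, down to -0.67, and in 3 of 9 in the neutrophil gate, down to -0.42, so no direction is read there. The intervals that excluded 1 were those of the monocyte or macrophage gate at 1.27 (1.09 to 1.49), from 318 and 342 UMIs, and the plasma gate at 1.24 (1.01 to 1.53), from 180 and 205 UMIs, where the PEP-WT level is not told from background. In barcodes of 1 gate alone the monocyte or macrophage log2 ratio was 0.32 (-0.09 to 0.73), close in size to the 0.35 of the whole gate, but its interval included 0. Summed neutrophil markers in the whole gate were 23969 CPM in PEP-WT and 37722 CPM in PEP-619WW. Of its barcodes 34.6% and 45.5% also passed the neutrophil gate. Beyond the restriction to 1 gate their part was not tested. The plasma value did not hold in barcodes of that gate alone, where 21 and 20 UMIs gave a log2 ratio of -0.14 (-1.10 to 0.81). In barcodes of the CD8 T gate alone the log2 ratio was 0.50 (0.20 to 0.80), against 0.20 (-0.02 to 0.43) for the whole gate. In *Cr2*-positive B barcodes the ratio was 1.56 (0.916 to 2.58), from 56 and 23 UMIs, which is past 1.5-fold and not beyond counting error, and the PEP-WT level again overlapped that of the erythroid barcodes.

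*Ptpn18* encodes PTP-HSCF, the phosphatase of hematopoietic cells that binds Csk through the Csk SH2 domain. It was close in level in 5 of the 6 gates and lower in the plasma gate. In PEP-WT of run 1 it stood at 606 CPM in the CD8 T (8412 UMIs), 536 CPM in the CD4 T, 539 CPM in the B, 526 CPM in the monocyte or macrophage and 496 CPM in the neutrophil gate. The plasma gate was lowest, at 331 CPM. PEP-619WW had 598, 591, 511, 496, 464 and 298 CPM in the same gates. The CD8 T level was 1.83-fold (1.78 to 1.88) that of the plasma gate in PEP-WT and 2.01-fold (1.95 to 2.07) in PEP-619WW. NK barcodes were higher than CD8 T barcodes in PEP-WT, at 840 CPM (interval 747 to 940).

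The ratios of *Ptpn18* lay between 0.90 and 1.10. The interval was above 1 in the CD4 T gate, at 1.10 (1.03 to 1.18), and below 1 in the B (0.95), plasma (0.90), monocyte or macrophage (0.94) and neutrophil (0.94) gates. In the CD8 T gate the ratio was 0.99 (0.96 to 1.02). Among barcodes of 1 gate alone the log2 ratio turned from -0.08 to 0.10 (0.05 to 0.15) in the B gate and from -0.10 to 0.44 (0.15 to 0.74) in the neutrophil gate, so a direction for *Ptpn18* there depends on which barcodes are counted. The plasma log2 ratio turned positive in 2 of 9 alternatives, up to 0.19, and the monocyte or macrophage one kept its sign in all 9. The CD4 T value kept its sign, at 0.24 (0.10 to 0.38) in barcodes of that gate alone. The conventional dendritic barcodes, 76 and 54 in number, gave a ratio of 1.26 (1.11 to 1.44). The share of these barcodes with a *Ptpn18* UMI was 90.8% in PEP-WT and 87.0% in PEP-619WW. After thinning it was 43.2% (31.8 to 55.3) and 36.5% (23.6 to 51.0). In PEP-619WW 1 barcode held 44 of the 470 UMIs. No share over all genes was computed for this set, and no direction is read.

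*Csk*, the kinase that restrains Src-family kinases, had its highest level among the 6 gates in B cells. NK barcodes, at 131 CPM in PEP-WT and 153 CPM in PEP-619WW, had intervals that reached the B gate level. Plasmacytoid dendritic barcodes stood at 122 CPM in PEP-WT (40 barcodes, 51 UMIs, interval 91.1 to 161) and 208 CPM in PEP-619WW (16 barcodes, 22 UMIs, interval 130 to 315). In PEP-WT of run 1 *Csk* stood at 163 CPM in the B gate (5816 UMIs), 129 CPM in the CD4 T, 115 CPM in the CD8 T, 112 CPM in the monocyte or macrophage, 108 CPM in the neutrophil and 102 CPM in the plasma gate. In PEP-619WW the same gates stood at 147, 113, 97.8, 93.2, 97.2 and 84.3 CPM. The CD8 T level was 0.70-fold (0.66 to 0.74) that of the B gate in PEP-WT and 0.67-fold (0.62 to 0.71) in PEP-619WW. The CD8 T and monocyte or macrophage gates could not be told apart in either genotype.

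In the whole gates of run 1 the *Csk* ratio was below 1 in all 6, and the intervals of 4 excluded 1, a criterion that 27.9% to 47.1% of all genes met. The log2 ratio kept its sign under each alternative run in the CD8 T, CD4 T and monocyte or macrophage gates, the last from -0.34 to -0.09. It turned sign in 3 of 9 alternatives in each of the B, plasma and neutrophil gates, up to 0.046, 0.17 and 0.20, so no direction is read there. The ratios were 0.82 (0.78 to 0.87) in the plasma, 0.83 (0.77 to 0.90) in the monocyte or macrophage, 0.85 (0.79 to 0.92) in the CD8 T and 0.90 (0.86 to 0.94) in the B gate. The CD4 T ratio of 0.88 (0.76 to 1.02) and the neutrophil ratio of 0.90 (0.80 to 1.01) included 1. In barcodes of 1 gate alone the CD8 T log2 ratio was -0.23 (-0.38 to -0.07) and the monocyte or macrophage value -0.22 (-0.42 to -0.03), close to those of the whole gates. The B and plasma values were 0.05 (-0.04 to 0.14) and 0.09 (-0.11 to 0.28), so the value below 1 in B and plasma barcodes did not hold there. Within the B gate the *Mki67*-positive subset had a *Csk* ratio of 0.84 (0.78 to 0.90), while the *Cr2*-positive and *Cr2*-negative subsets without *Mki67* had 1.02 (0.91 to 1.14) and 0.95 (0.89 to 1.02). In *Mki67*-positive CD8 T barcodes *Csk* had a ratio of 0.84 (0.77 to 0.93), while in *Gzmb*-positive, *Mki67*-negative CD8 T barcodes the ratio of 0.90 (0.77 to 1.04) included 1. No share over all genes was computed for the *Mki67*-positive and *Gzmb*-positive subsets.

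Run 2 allowed a genotype ratio in the 2 myeloid gates only. There *Ptpn22* stood at 19.1 CPM in PEP-WT (1187 UMIs) and 45.9 CPM in PEP-619WW (1574 UMIs) in the monocyte or macrophage gate, a ratio of 2.40 (2.23 to 2.59). In the neutrophil gate it stood at 16.3 CPM (34 UMIs) and 42.5 CPM (165 UMIs), a ratio of 2.61 (1.79 to 3.89). The thinned shares of the PEP-WT library were 1.83% (1.51 to 2.19) and 1.41% (0.57 to 2.89). They lie within or overlap the interval of the run 1 erythroid barcodes, which come from another library. The 89 erythroid barcodes of the run 2 PEP-WT library held 1 UMI of *Ptpn22* (4.71 CPM), too few to set its background. How far these PEP-WT levels stand above background is thus not settled. In these gates 38.7% and 38.1% of all genes passed 1.5-fold. Of the 8 ratios of the 4 genes 6 passed 1.5-fold, all of them higher in PEP-619WW.

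*Ptpn12* in run 2 stood at 24.5 and 39.8 CPM in the monocyte or macrophage gate, a ratio of 1.63 (1.51 to 1.75), and at 67.1 and 110 CPM in the neutrophil gate, a ratio of 1.64 (1.35 to 2.00). *Csk* stood at 62.6 and 119 CPM (1.90, 1.82 to 1.99) and at 49.8 and 88.9 CPM (1.78, 1.43 to 2.24). *Ptpn18* stood at 426 and 363 CPM (0.85, 0.84 to 0.87) and at 303 and 260 CPM (0.86, 0.78 to 0.95). Its log2 ratio turned sign in 4 of 9 alternatives in the neutrophil gate, up to 0.29, and in 1 of 9 in the monocyte or macrophage gate, at 0.067. The PEP-WT library of run 2 was the low one for *Ptpn22* and *Csk*, below both libraries of run 1 in both gates. The *Csk* direction in the monocyte or macrophage gate was opposite to that of run 1.

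The myeloid cells of run 2 were not the same mixture in the 2 genotypes. *Ly6c2*, a gene of inflammatory monocytes, marked 346 of the 6488 PEP-WT barcodes and 2018 of the 4919 PEP-619WW barcodes of the monocyte or macrophage gate. Within *Ly6c2*-positive barcodes *Ptpn22* stood at 25.7 and 47.3 CPM, a ratio of 1.84 (1.46 to 2.36), where 33.8% of genes passed 1.5-fold. Within *C1qa*-positive, *Ly6c2*-negative barcodes, the pattern of tissue macrophages, it stood at 18.4 and 41.3 CPM, a ratio of 2.24 (1.99 to 2.52), where 29.4% passed. In the whole gate the summed T cell markers were 13.4 CPM in PEP-WT and 192 CPM in PEP-619WW, and the summed melanocyte markers 125 and 14.5 CPM. The part of these RNAs in the ratios was not tested, and genotype cannot be told apart from the makeup of the libraries in run 2.

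**Figure D4:**
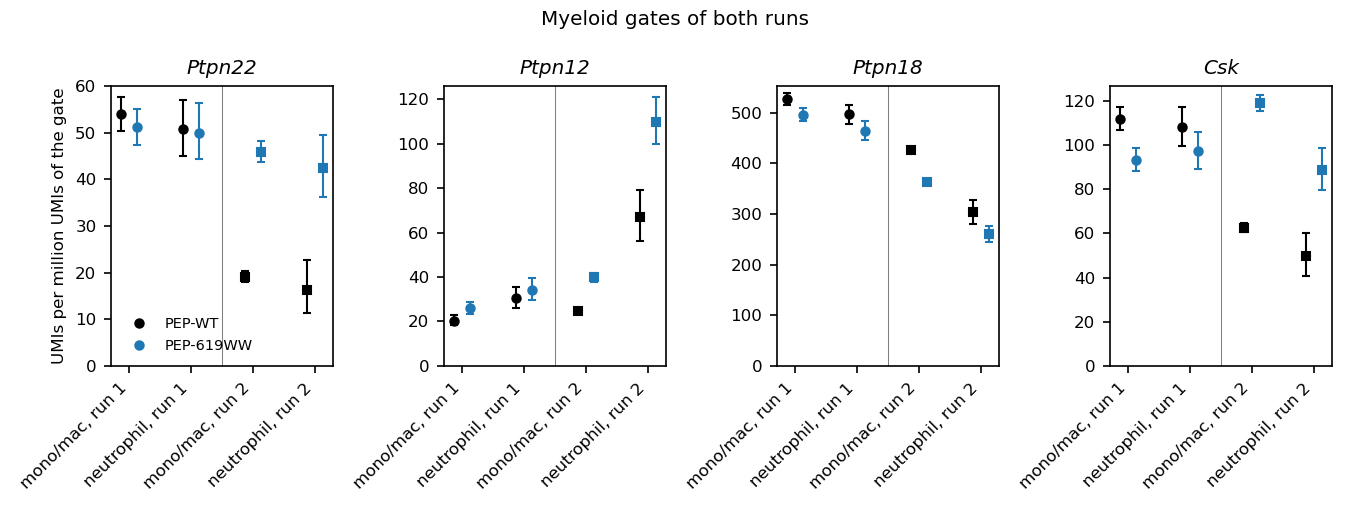
UMIs per 1000000 UMIs of the gate (vertical axes, linear, with a different scale for each gene) in the monocyte or macrophage (mono/mac) and neutrophil gates of run 1 (circles) and run 2 (squares), with PEP-WT in black and PEP-619WW in blue. Bars are exact Poisson 95% intervals. The PEP-WT library of run 2 stands below the other 3 libraries for *Ptpn22* and *Csk* in both gates.

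The PEP-619WW library of run 2 gave levels for more cell types without a matched PEP-WT value. *Ptpn22* stood at 201.3 CPM in 466 NK barcodes, 187 CPM in 394 CD8 T barcodes and 116 CPM in 438 CD4 T barcodes. It stood at 48.3 CPM in 503 B barcodes, 44.0 CPM in 349 conventional dendritic barcodes and 23.97 CPM in 244 plasmacytoid dendritic barcodes. The NK and CD8 T levels were the highest of these, and the CD8 T level was 3.88-fold (3.05 to 5.00) that of the B gate. *Gzmb*-positive, *Mki67*-negative CD8 T barcodes stood at 260 CPM (interval 218 to 309), close to the 269 CPM of PEP-619WW in run 1. *Csk* stood at 186 CPM in B barcodes against 152 CPM in CD4 T and 145 CPM in plasmacytoid dendritic barcodes, and *Ptpn12* at 110 CPM in neutrophils against 37.4 CPM in NK barcodes. The B gate of that library stood at 24.1 CPM of *Ptpn12* (38 UMIs, interval 17.1 to 33.1), and the CD8 T level was 0.91-fold (0.603 to 1.39) that of the B gate. Summed monocyte or macrophage markers in the B gate of PEP-619WW were 3369 CPM in run 2 against 648 CPM in run 1, and 12.9% of the run 2 B barcodes also passed the monocyte or macrophage gate. Their part in the *Ptpn12* level was not tested. The *Ptpn22* level of the B gate, 91.0 CPM in PEP-619WW of run 1, was higher than the 48.3 CPM of run 2.

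The 28 partners and substrates of the 4 proteins were read in the same gates. They comprised the adaptors that recruit Csk, the Csk relative *Matk*, the Src-family and Syk-family kinases, substrates of the PEST phosphatases and other signalling proteins. In run 1 the numbers past 1.5-fold, higher and lower in PEP-619WW, were 0 and 3 of 24 measured in the CD8 T gate, 1 and 3 of 23 in the CD4 T gate and 1 and 1 of 25 in the B gate. They were 1 and 3 of 25 in the plasma, 1 and 0 of 25 in the monocyte or macrophage and 0 and 3 of 23 in the neutrophil gate. With 23 to 25 genes read per gate, against 8.6% to 13.4% of all genes past the same size, these counts are too small to set the list apart. The *Lck* level, the main Src-family kinase of T cells and a PEP substrate, was 256 and 235 CPM in the CD8 T gate and 257 and 315 CPM in the CD4 T gate. *Zap70* stood at 80.2 and 84.8 CPM in the CD8 T gate and at 119 and 140 CPM in the CD4 T gate. *Fyn* stood at 162 and 152 CPM in the CD8 T gate. In the CD4 T gate *Fyn* stood at 185 and 271 CPM, a ratio of 1.47, which did not pass 1.5-fold.

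*Blk*, the Src-family kinase of B cells, was lower in PEP-619WW past 1.5-fold in 3 gates, namely CD8 T, CD4 T and plasma. It was 11.1 and 7.003 CPM in the CD8 T gate, 13.3 and 4.30 CPM in the CD4 T gate and 41.9 and 24.6 CPM in the plasma gate, against 92.6 and 77.6 CPM in the B gate. The summed B cell markers were 420 and 354 CPM in the CD8 T gate, 490 and 237 CPM in the CD4 T gate and 1648 and 1220 CPM in the plasma gate. Their part in the *Blk* values was not tested. *Yes1*, another Src-family kinase, was higher past 1.5-fold in the B, plasma and monocyte or macrophage gates, with 23 to 122 UMIs per library, and under the count minimum in the other 3.

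*Ptpn6*, the phosphatase SHP-1 that dampens antigen receptor signals in B cells, was lower in PEP-619WW past 1.5-fold in the B gate, at 228 and 148 CPM, and in the plasma gate, at 117 and 74.0 CPM. These gates share barcodes. Its ratio was also below 1 in the monocyte or macrophage (0.75), CD8 T (0.81), neutrophil (0.82) and CD4 T (0.94) gates, and only the CD4 T interval included 1. *Pag1*, the membrane adaptor that docks Csk, stood at 49.1 and 41.4 CPM in the B gate and 27.3 and 26.4 CPM in the CD8 T gate. *Pstpip1*, the adaptor shared by the PEST phosphatases, stood at 66.8 and 72.4 CPM in the CD8 T gate and 51.4 and 68.4 CPM in the CD4 T gate. *Ptpn6*, *Pag1*, *Pstpip1*, *Lck*, *Fyn* and *Zap70* were named for their roles after their values had been seen. In run 2 the list counted 14 higher and 2 lower of 25 in the monocyte or macrophage gate and 13 higher and 0 lower of 20 in the neutrophil gate, in libraries where 38.7% and 38.1% of all genes passed.

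Over the 12 values that the 6 gates of both run 1 libraries give, the genes whose log2 level followed each member most closely were named from 11775 genes with at least 200 UMIs. They were *Prrc2b*, *Dnaaf5*, *Fam78a* and *Gimap1os* for *Ptpn22* (Pearson r of 0.98 to 0.99), and *S100a6*, *Lasp1*, *Rab27a*, 1700020L24Rik and 4930581F22Rik for *Ptpn12* (0.98 to 0.99). For *Ptpn18* they were *Kbtbd2*, *Tacc1*, *Idnk*, *Uhmk1* and *Pdcd10* (all 0.96), and for *Csk* they were *Sertad2*, *Eif4a2*, *Avl9*, *Crlf3* and *Tmem131l* (0.95 to 0.96). Among the members r was 0.65 for *Ptpn22* with *Ptpn18* and 0.23 for *Ptpn22* with *Csk* or *Ptpn12*, and -0.31 for *Ptpn12* with *Csk*. The 12 values share libraries, barcodes and depth, so these r are descriptions.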

How the data were processed

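The deposited tables give raw UMI counts, not normalized, which the authors made with Cell Ranger on an mm10 reference (version 6.0.0 in the submitters' processing notes, a different one in the methods). Of 32285 genes 32158 were matched to a current symbol. All deposited barcodes were used, no doublet was removed, and the share of barcodes in more than 1 gate is given in its place. UMIs were summed per library and gate and divided by the total of the gate, with exact Poisson, conditional binomial and Clopper-Pearson 95% intervals (scipy 1.17.1, numpy 2.4.6, Python 3.11.15), which cover counting error only. With 1 library per genotype and run, no p-value, standard error or test was computed. A ratio needed 50 barcodes per genotype and the background 50 UMIs per gene. NK, dendritic and erythroid barcodes, subsets, the 28-gene list and the marker lists were set by hand. Genes of that list were named if past 1.5-fold the same way in at least 3 of the 6 gates of run 1, or for a role needed to read a member. Members, gates and lists were chosen with earlier results of these data known. Ratio and interval code was tested on simulated data. Alternatives were exclusive gates, stricter gates, an *Mt2* limit, mean CPM per barcode, totals without immunoglobulin, hemoglobin and mitochondrial genes, median ratio scaling, a limit of 10% mitochondrial UMIs, and other count minimums. Sequences and coordinates come from the GENCODE M21 annotation of GRCm38. Protein sequences were not used here. Some genes and subsets that met the naming rules are not reported here.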

Additional observations from a re-analysis of the deposited data

Results flagged for a closer look

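The *Csk* difference between genotypes had opposite directions in the 2 runs. In the monocyte or macrophage gate the ratio of PEP-619WW to PEP-WT was 0.83 in run 1 and 1.90 in run 2, a distance of 1.19 on the log2 scale. With 1 library per genotype and run this difference was not tested, and both libraries of run 2 hold more melanocyte marker RNA than those of run 1, with few lymphocytes in the PEP-WT one.

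The *Ptpn18* difference had opposite directions in 2 gates of run 1. The ratio was 1.10 in the CD4 T gate and 0.90 in the plasma gate, a distance of 0.29 on the log2 scale, and this difference was not tested. The plasma value turned positive in 2 of 9 alternatives, up to a log2 ratio of 0.19, so the opposite directions depend on which barcodes are counted.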

How the results depend on the processing

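No paired analysis was possible because each genotype has 1 sample and the labels carry no replicate numbers. Values here are log2 ratios of PEP-619WW to PEP-WT unless named otherwise, and the cause of each move was not tested. Of 296 recomputed ratios between genotypes 205 stayed within counting error, 68 moved and 23 turned direction. Of 96 ratios of the CD8 T to another gate 56 stayed and 40 moved. A turn was counted only where the main interval excluded 1, so other changes of sign are among those that stayed or moved. Among the shares of barcodes, counted apart from these, 90 moved on thinning and 2 did not. *Ptpn22* kept its sign under each alternative run in the CD8 T (0.15 to 0.37), CD4 T (0.20 to 0.58), B (0.44 to 0.80) and plasma (0.29 to 0.84) gates of run 1 and in both gates of run 2. In the myeloid gates of run 1 it ranged from -0.13 to 0.11 and from -0.09 to 0.47.

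With exclusive gates *Ptpn22* was 0.26 in CD8 T, 0.79 in B and 0.11 in monocyte or macrophage barcodes of run 1 and 1.15 in the latter of run 2. *Ptpn18* turned to 0.10 in B, 0.44 in neutrophil and, in run 2, 0.15 in neutrophil barcodes, *Csk* to 0.046 in B and 0.085 in plasma, and *Ptpn12* to -0.14 in plasma barcodes. The log2 distance of *Ptpn22* from CD8 T to B was then 1.59 in PEP-WT, and to monocyte or macrophage barcodes 2.49 and, in PEP-619WW, 2.64. With the mean CPM per barcode *Ptpn22* was 0.73 in B, 0.42 in plasma, 0.47 in neutrophil and, in run 2, 1.06 in monocyte or macrophage barcodes, and its distances were 1.52, 2.20 and 2.35. *Ptpn18* turned to 0.038 in B, 0.067 in neutrophil and 0.12 in run 2 neutrophil barcodes. With median ratio scaling *Ptpn18* was 0.012 in neutrophil barcodes of run 1 and *Ptpn22* 1.15 in monocyte or macrophage barcodes of run 2.

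The next alternatives were chosen after seeing the data. In barcodes of 2000 to 10000 UMIs *Ptpn22* was 0.37 in CD8 T, 0.31 in CD4 T, 0.73 in B, 0.84 in plasma and, in run 2, 0.99 in monocyte or macrophage barcodes. Its distances were 1.54 and 2.37 in PEP-WT and 1.18 and 2.77 in PEP-619WW. *Ptpn18* turned to 0.0922 in B, 0.19 in plasma and, in run 2, 0.067 in monocyte or macrophage and 0.27 in neutrophil barcodes, and *Csk* to 0.044 in B and 0.092 in plasma barcodes. *Ptpn12* rested on 27 and 32 UMIs in plasma barcodes there, at 1.23, and *Csk* on 9 and 181 UMIs in neutrophil barcodes of run 2, at 2.49. Without *Mki67* barcodes *Ptpn22* was 0.34 in CD8 T, 0.65 in B and 0.42 in plasma barcodes, and *Ptpn18* 0.014 in B barcodes. With exclusive gates and no *Mki67* *Ptpn22* was 0.35 in CD8 T, 0.20 in CD4 T, 0.80 in B, 0.67 in plasma and, in run 2, 2.15 in neutrophil barcodes. *Ptpn18* was then 0.0923 in B, 0.0054 in plasma, 0.49 in neutrophil and 0.29 in run 2 neutrophil barcodes, and *Csk* 0.029 in B and 0.17 in plasma barcodes.

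The number of genes past 1.5-fold depended on the count minimum. At 20, 50 and 200 UMIs it was 1546, 932 and 385 in CD8 T, 1796, 1087 and 311 in CD4 T, 1772, 1125 and 568 in B, 1639, 1030 and 502 in plasma, 1585, 983 and 436 in monocyte or macrophage and 1960, 1246 and 495 in neutrophil barcodes of run 1. In run 2 neutrophil barcodes it was 4109, 2957 and 1404.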
